A study of Mus musculus with 2 samples.

Results

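The genes described here encode the general splicing machinery and a set of RNA-binding proteins that regulate splicing in neurons and other tissues. They were taken by symbol, as all entries named Hnrnp, Srsf, Sf3a, Sf3b, U2af, Snrp, Lsm, Prpf, Celf, Rbfox, Elavl, Nova, Ptbp or Mbnl with the imprinted gene Snrpn left out. This gave 101 of 24319 named genes, and the choice was made with earlier results of these data known. RNA was read from nuclei of the dentate gyrus, the hippocampal region where granule neurons are born in the adult, in 8-week-old mice that were either wild-type or Kmt2d +/mut. The mutant allele is given by the submitters as Bgeo, 1 copy is intact, and KMT2D methylates lysine 4 of histone H3. All mice received 150 mg/kg of EdU, a thymidine analogue that marks DNA made during the following hours, and were sampled 16 h later, so both groups share the label and the sort for it. For each genotype 500 EdU-positive nuclei pooled from 3 mice made 1 library of polyadenylated RNA, and no difference between the libraries has a replicate check. In such pooled samples fewer nuclei of a type and less RNA per nucleus cannot be told apart.

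Splicing removes introns from newly made RNA, in the nucleus and largely while transcription is under way. Small nuclear ribonucleoproteins (snRNPs), each built on a ring of Sm or LSm proteins, recognise the ends of the intron, and PRPF and SF3 proteins help assemble and remodel the spliceosome around them. SR proteins mostly favour and hnRNP proteins often oppose the use of nearby exons. Proteins of the CELF, RBFOX, ELAVL, NOVA, PTBP and MBNL families bind short sequence motifs and set which exons a cell type includes. In the developing brain PTBP1 marks progenitors and gives way to PTBP2 as neurons differentiate.

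Values are FPKM, fragments scaled to transcript length and library size, as the authors deposited them, and every ratio is Kmt2d +/mut over wild-type unless stated. Provided that every library was normalised to its own sum, the steps between its low FPKM put the depth at about 219000 fragments for wild-type and 217000 for Kmt2d +/mut. Kmt2d itself was read at 34.7 FPKM in wild-type against 23.5 in Kmt2d +/mut, a value over the whole gene that does not separate the intact from the mutant copy. Of 8 markers of the granule neuron lineage 5 were above 0 in each library, with summed FPKM of 1128 (wild-type) and 857 (Kmt2d +/mut). The defining marker Prox1, and Neurod2, were listed at 0 in both; the member Rbfox3 is among these 8. Of 7 stem and progenitor markers 4 were above 0 in wild-type and 6 in Kmt2d +/mut, summing to 428 and 1001 FPKM, with Nes at 0 in both and Sox2 at 0 in wild-type. Of 4 proliferation markers Pcna and Mcm2 were listed at 0 in both libraries, and the list summed to 2.71 and 23.1 FPKM. Oligodendrocyte lineage markers summed to 742 FPKM in wild-type against 1282 in Kmt2d +/mut (4 and 5 of 6 above 0, Mog at 0 in both), and microglial markers to 59.8 and 211 (2 of 4 in each, Cx3cr1 at 0 in both). Of 3 astrocyte markers only Gfap was above 0, at 54.6 FPKM in wild-type; of 4 interneuron markers only Sst was, at 313 FPKM in Kmt2d +/mut; and 3 endothelial markers were at 0 in both. The part of these differences in cell makeup in the values below was not tested.

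Across the 101 genes, the share that stood lower in Kmt2d +/mut was close to that of all genes. The families differed in how their members were split. At 0 in both libraries stood 23 genes, and the other 78 reached 1 FPKM in either library, the minimum used for every count below. Differences are on the scale of log2(FPKM + 1), which understates those of low genes. Of these 78 genes 37 (47.4%) stood at least 2-fold lower, against 44.3% of all 7903 genes over the minimum, and 24 (30.8%) at least 2-fold higher, against 40.5%. The remaining 17 of the 78 lay within 2-fold, against 15.3% of all genes. Among the higher and lower genes, 29 of the 78 were listed at 0 in 1 library, next to 59.7% of all genes. The 0 was in wild-type for 10 (next to 27.8% of all genes) and in Kmt2d +/mut for 19 (next to 31.9%). Above 0 in both were 62.8% of the 78 and 40.3% of all genes. The median log2 ratio was -0.77, and -0.23 over all genes. Among the 49 members above 0 in both libraries the split was more even, with 18 lower, 14 higher and 17 within 2-fold, next to 30.6%, 31.5% and 37.9% of all genes above 0 in both, and their median of -0.28 stood beside 0.02 for all. As sums, the members held 1.65% of the FPKM in wild-type against 1.53% in Kmt2d +/mut. The share that stood lower lies near that of all genes, and no reading of the whole set is made from it.

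**Figure D1:**
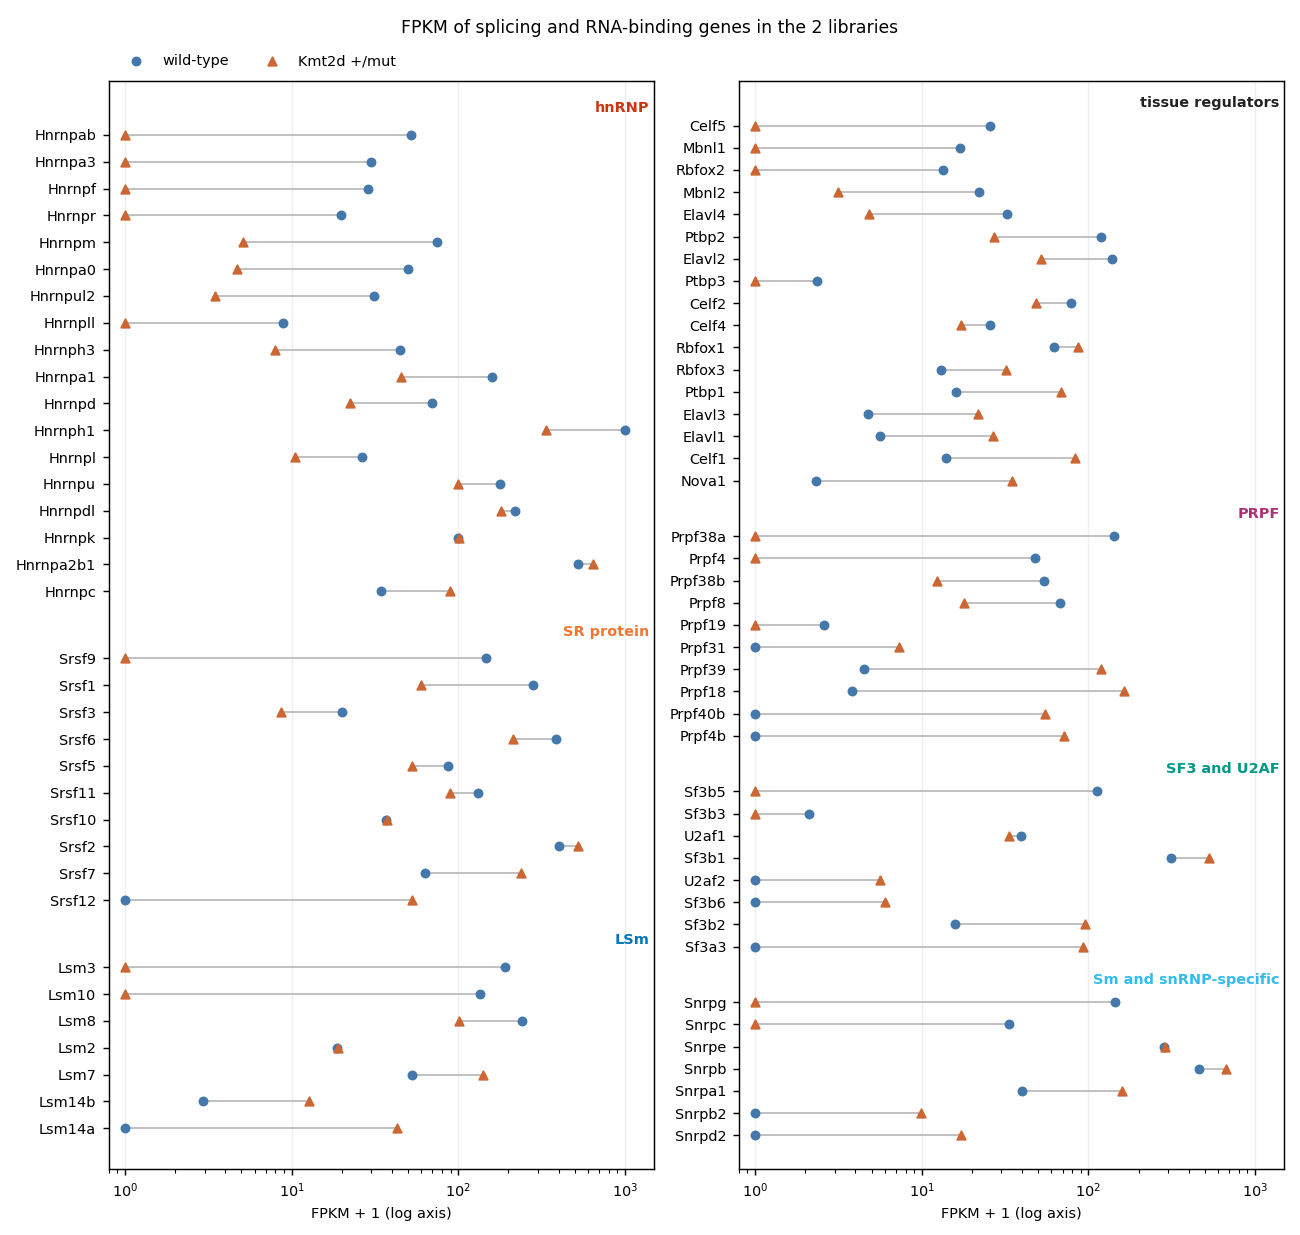
FPKM + 1 on a log axis for 77 of the 78 genes over the minimum, with a circle for the wild-type library and a triangle for the Kmt2d +/mut library, 1 library each, grouped by family and ordered by ratio. Genes listed at 0 sit at 1; in the hnRNP family the triangle lies at least 2-fold to the left of the circle in 13 of 18 genes and as far to the right in 1.

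**Figure D2:**
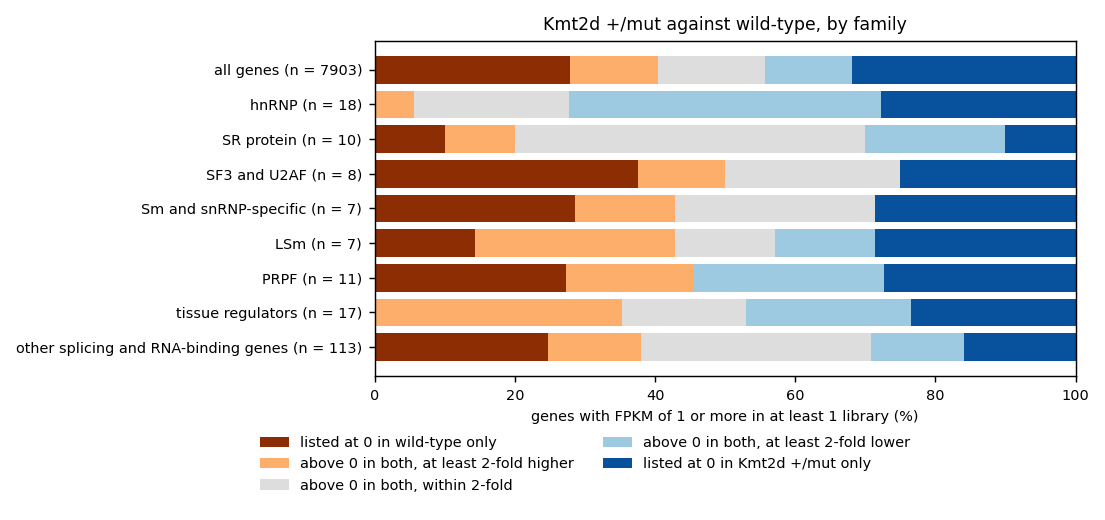
Share of genes over the minimum, in percent, by how their 2 values compare, for all genes, the 7 families and the other splicing and RNA-binding genes. Blue parts are lower and brown parts higher in Kmt2d +/mut; the dark parts are genes listed at 0 in 1 library. Lower genes make up 72.2% of the hnRNP bar and 44.3% of the bar of all genes.

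The hnRNP genes stood lower in Kmt2d +/mut as a family. These proteins coat newly made RNA and act as splicing repressors, enhancers or packaging factors according to where they bind. Of 20 members 18 were over the minimum, and 13 of the 18 stood at least 2-fold lower (72.2%, next to 44.3% of all genes), 4 within 2-fold and 1 at least 2-fold higher (5.56%, next to 40.5%). The median log2 ratio was -2.15, and the family's FPKM summed to 2633 in wild-type and 1537 in Kmt2d +/mut. None of the 18 was listed at 0 in wild-type and 5 were in Kmt2d +/mut, where 27.8% and 31.9% of all genes were. Over the 13 members above 0 in both libraries 8 were lower, 4 within 2-fold and 1 higher, with a median of -1.57. Of all genes above 0 in both, 30.6% were lower, 37.9% within 2-fold and 31.5% higher, with a median of 0.02. Among the 10 members tested by the authors 5 were lower and 1 higher. With a pseudocount of 10 the split was 11 lower and 1 higher, and with the libraries rescaled to the same FPKM sum it was again 13 and 1. The shares of all genes at these last settings are not given, so no reading is made from those counts. Hnrnph2 and Hnrnpul1 were listed at 0 in both.

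The most abundant hnRNP gene carried much of the difference in the sum. Hnrnph1 (mm10, chr11:50376990-50386528, plus strand), whose protein binds runs of G, was read at 999 FPKM in wild-type against 337 in Kmt2d +/mut. These are about 492 and 164 fragments, and the ratio of 0.337 had an exact binomial 95% interval of 0.281 to 0.404. Intervals here cover counting error only, and since the libraries went through 22 cycles of cDNA amplification and 20 of enrichment with no molecular identifiers described, fragments are not independent molecules. Hnrnpa1, a general exon repressor, stood at 158 FPKM in wild-type against 44.1 in Kmt2d +/mut, a ratio of 0.279 (interval 0.157 to 0.499). Hnrnpd, which binds AU-rich elements, stood at 68.8 and 21.4, and Hnrnpu, a large nuclear scaffold protein that binds chromatin and RNA, at 177 and 98.9. All 4 were lower in Kmt2d +/mut, Hnrnpu by less than 2-fold.

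Other hnRNP genes rested on a few fragments or none in the Kmt2d +/mut library. Where a library holds few fragments, the ratio of its value to the other library's is a ratio of small whole numbers, once divided by 1.013, the most frequent ratio near 1, shared by 77 genes. For Hnrnpm, at 73.4 FPKM in wild-type against 4.13 in Kmt2d +/mut, the smallest such pair was 18 fragments to 1, and the annotated length gives about 60.4 and 3.36. For Hnrnpa0, at 49.2 and 3.69, it was 27 to 2, and the annotated length also gives about 27 and 2 fragments. Hnrnpul2 stood at 30.2 and 2.48 (37 to 3) and Hnrnph3 at 43.6 and 6.98 (19 to 3). The true numbers can be multiples of these pairs, and the low side of each rests on a handful of fragments. Hnrnpl, which binds CA repeats, stood at 25.6 and 9.43. Listed at 0 in Kmt2d +/mut were Hnrnpab at 51.2 FPKM in wild-type, Hnrnpa3 at 29.1, Hnrnpf at 27.6, Hnrnpr at 18.9 and Hnrnpll at 7.92. An exact 0 in such a table can be a failed estimate, so no fold is given for these. In the authors' deposited table Hnrnpab was tested and not called, with a q-value of 0.369.

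A few hnRNP genes kept similar values or ran the other way. Hnrnpa2b1, the close partner of Hnrnpa1 in the core hnRNP particle, was read at 524 FPKM in wild-type against 641 in Kmt2d +/mut, a ratio of 1.22 (interval 0.997 to 1.51). Hnrnpk, which binds C-rich stretches, stood at 98.0 and 100.5 and Hnrnpdl at 218 and 179. Hnrnpc, which binds uridine tracts, was the only member at least 2-fold higher, at 33.3 FPKM in wild-type against 88.7 in Kmt2d +/mut, a ratio of 2.67 (interval 1.51 to 5.0). Hnrnpa1, Hnrnpa3, Hnrnpc, Hnrnpf, Hnrnpk and Hnrnpr have annotated pseudogenes at least 95% identical over 200 bases, 9 for Hnrnpa1, so their values are uncertain: how reads fitting several places were counted is not known, nor whether strand was used. Without them, 9 of 12 hnRNP genes stood at least 2-fold lower and 0 higher, next to 44.3% and 40.5% of all genes, copies included. The authors' deposited table tested 10 hnRNP genes and calls 0, next to 27.0% of all genes tested. All but Hnrnpab were above 0 in both libraries, a class in which the authors' deposited table calls 0 of 1826 genes.

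**Figure D3:**
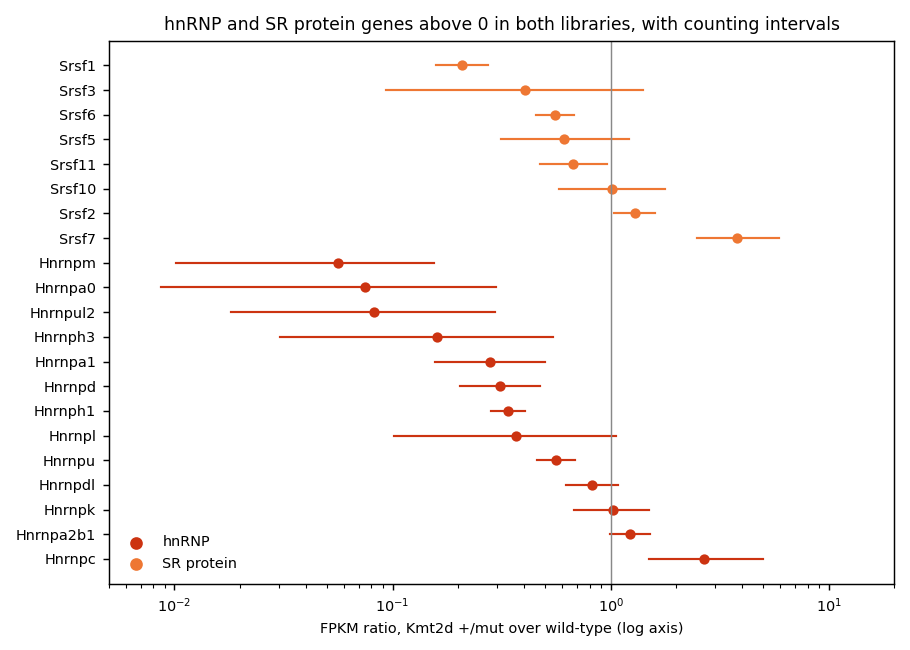
FPKM ratio of Kmt2d +/mut over wild-type on a log axis for the 13 hnRNP and 8 SR protein genes above 0 in both libraries; points are the ratios, bars the exact binomial 95% intervals of the estimated fragments, which cover counting error only, and the vertical line marks equal values. Hnrnpm, at 0.0563, is the lowest of these ratios and Srsf7, at 3.79, the highest.

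The start regions of the hnRNP genes are shown because these genes stood lower together. The windows run from 250 bases before to 50 after the start (RefSeq, GRCm38.p6) for Hnrnpm (chr17:33685409-33685708, minus strand) and Hnrnpa1 (chr15:103240147-103240446, plus strand), 5′ to 3′. Capitals mark any match, on either strand and with overlaps allowed, to 5 motifs. The GC box was searched as GGGCGG and the CCAAT box by the letters of its name. The core bound by ETS factors was searched as CCGGAAG. The TATA box was searched as TATAAA, and the cyclic AMP element (CRE) as TGACGTCA.
Hnrnpm: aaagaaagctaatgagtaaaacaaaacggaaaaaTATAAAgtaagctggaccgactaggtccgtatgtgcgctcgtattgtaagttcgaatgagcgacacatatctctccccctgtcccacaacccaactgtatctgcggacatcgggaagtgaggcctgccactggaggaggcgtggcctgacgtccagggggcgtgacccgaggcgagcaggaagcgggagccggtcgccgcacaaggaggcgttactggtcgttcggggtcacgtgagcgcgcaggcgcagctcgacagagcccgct
Hnrnpa1: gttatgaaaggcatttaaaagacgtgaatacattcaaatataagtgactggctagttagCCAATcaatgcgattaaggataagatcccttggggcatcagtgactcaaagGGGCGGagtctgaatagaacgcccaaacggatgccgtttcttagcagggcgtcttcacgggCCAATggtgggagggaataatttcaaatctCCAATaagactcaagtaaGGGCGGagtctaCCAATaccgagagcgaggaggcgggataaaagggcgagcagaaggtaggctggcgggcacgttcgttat
The Hnrnpa1 window holds 4 matches to the CCAAT box and 2 to the GC box. The Hnrnpm window holds 1 match to the letters TATAAA, near its upstream end and far from the start. The CCAAT box was found in 17 of 27 windows of 18 hnRNP genes (63.0%), in 36.9% of the 7896 windows of all genes over the minimum and in 37.4% of all 32851. The GC box was found in 21 of the 27 (77.8%), against 62.0% and 35.7%. Across the families the GC box share ran from 42.9% (PRPF) to 92.9% (SR protein), with LSm at 91.7%. The CCAAT share ran from 28.6% (SR protein) to the 63.0% of the hnRNP windows, with PRPF at 57.1%. The GC box share is thus not particular to the hnRNP genes. Windows of 1 gene can overlap, so they are not independent, and a match says nothing of a factor's binding.

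SR protein genes were split, with the 2 most abundant members within 2-fold. These proteins bind exonic enhancers through RNA recognition motifs and recruit the spliceosome through domains rich in arginine and serine. Of 11 genes 10 were over the minimum, of which 3 stood at least 2-fold lower (next to 44.3% of all genes), 2 higher (next to 40.5%) and 5 within 2-fold, with a median log2 ratio of -0.64. Srsf2, known as the nuclear speckle protein SC35, was read at 404 FPKM in wild-type against 519 in Kmt2d +/mut, and Srsf6 at 383 and 212. Their intervals were 1.04 to 1.60 and 0.453 to 0.678. Srsf1, the founding member, stood at 279.5 FPKM in wild-type against 58.4 in Kmt2d +/mut, a ratio of 0.209 (interval 0.159 to 0.275). Srsf7, which also takes part in mRNA export, ran the other way at 62.2 and 236, a ratio of 3.79 (interval 2.49 to 5.90). Srsf1 and Srsf7 thus stand at opposite ends of the family among members above 0 in both.

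The remaining SR protein genes were read as follows. Srsf5 stood at 85.5 FPKM in wild-type against 52.0 in Kmt2d +/mut, Srsf11 at 131 and 87.7, Srsf10 at 35.6 and 36.2, and Srsf3, whose pair was 5 fragments to 2, at 18.9 and 7.68. Of these only Srsf3 passed 2-fold. Srsf9 (chr5:115327177-115333080, plus strand) stood at 146 FPKM in wild-type, about 31.5 fragments, against a listed 0, where 3 fragments would be 14.1 FPKM. The authors' deposited table has it as lower, with a q-value of 0.029. Srsf12 (chr4:33208991-33233340, plus strand) had a listed 0 in wild-type and 51.8 FPKM in Kmt2d +/mut, called as higher in the authors' deposited table with a q-value of 0.0303. Srsf4 was listed at 0 in both. Srsf3, Srsf5 and Srsf10 have near-identical annotated pseudogenes.

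The genes of branch point and 3′ splice site recognition ran both ways, on few members. SF3A and SF3B proteins belong to the U2 snRNP, which binds the branch point, and the U2AF proteins bind the pyrimidine tract and the AG at the end of the intron. Of 12 genes 8 were over the minimum, of which 4 stood at least 2-fold higher (next to 40.5% of all genes), 2 lower (next to 44.3%) and 2 within 2-fold, with a median log2 ratio of 1.62. Of the 4 higher genes, U2af2 and Sf3b6 rest on about 1.90 and 1.09 fragments against a listed 0. Among the 3 members above 0 in both libraries 1 was higher, next to 31.5% of all genes of that kind. Sf3b1, which contacts the branch point, was read at 311 FPKM in wild-type against 529 in Kmt2d +/mut, about 410.1 and 689 fragments, a ratio of 1.70 (interval 1.5 to 1.93). Sf3b2 stood at 14.9 and 95, a ratio of 6.38 (interval 3.25 to 14.0), and U2af1 at 38.5 and 32.5. Sf3a3 (chr4:124714776-124732460, plus strand) was listed at 0 in wild-type and stood at 91.9 FPKM in Kmt2d +/mut, about 32.7 fragments, called as higher in the authors' deposited table with a q-value of 0.029. In the opposite direction Sf3b5 stood at 111 FPKM in wild-type against a listed 0, with a q-value of 0.369 and no call in the authors' deposited table.

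Values close to 1 or a few fragments made up the rest of this group. U2af2, which binds the pyrimidine tract, was listed at 0 in wild-type and stood at 4.60 FPKM in Kmt2d +/mut, Sf3b6 at 0 and 5.02, and Sf3b3 at 1.10 and 0. U2af1 and U2af2 have near-identical annotated pseudogenes. Sf3a1, Sf3a2, Sf3b4 and U2af1l4 were listed at 0 in both. An ETS core recurs in the start regions of this group, and that of Sf3a3 (chr4:124714611-124714910, plus strand, GRCm38.p6) is shown with the match in capitals, read on the opposite strand.
Sf3a3: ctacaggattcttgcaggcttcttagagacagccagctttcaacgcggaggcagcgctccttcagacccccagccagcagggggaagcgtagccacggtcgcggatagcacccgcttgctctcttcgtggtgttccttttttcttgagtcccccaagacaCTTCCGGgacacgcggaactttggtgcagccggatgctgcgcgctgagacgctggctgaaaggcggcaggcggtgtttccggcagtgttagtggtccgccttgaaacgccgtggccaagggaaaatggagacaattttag
The core CCGGAAG was found in 7 of 11 windows of 9 genes of this group (63.6%), in 6 of 14 windows of SR protein genes (42.9%), in 4 of 27 of hnRNP genes (14.8%) and in 0 of 43 windows of the tissue regulators. Sm and snRNP-specific genes had it in 4 of 10 windows (40%), PRPF genes in 4 of 14 (28.6%) and LSm genes in 1 of 12 (8.33%). The core was found in 17.2% of the windows of all genes over the minimum and in 8.86% of all windows. Here too windows of 1 gene can overlap and are not independent.

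Sm and snRNP-specific genes had their 2 most abundant members within 2-fold, and 4 others listed at 0 in 1 library. Sm proteins form the ring around the U1, U2, U4 and U5 RNAs, and the others belong to U1 or U2. Of 11 genes 7 were over the minimum, with a median log2 ratio of 0.53. Of the 7, 3 stood at least 2-fold higher (next to 40.5% of all genes), 2 lower (next to 44.3%) and 2 within 2-fold (next to 15.3%). Snrpb, which encodes SmB, was read at 463 FPKM in wild-type against 668 in Kmt2d +/mut (interval of the ratio 1.11 to 1.88), and Snrpe at 283 and 287. Snrpa1, the U2 protein that pairs with Snrpb2, stood at 38.8 and 157, a ratio of 4.05 (interval 1.92 to 9.57) whose smallest pair was 4 fragments to 1. Snrpg stood at 144 FPKM in wild-type against a listed 0, with a q-value of 0.369 and no call in the authors' deposited table. Snrpc, a U1 protein, stood at 32.5 in wild-type and a listed 0, while Snrpd2 and Snrpb2 were listed at 0 in wild-type and stood at 16.2 and 8.92 in Kmt2d +/mut. Snrpa, Snrpd1, Snrpd3 and Snrpf were listed at 0 in both. Of these 11 genes 7 have near-identical annotated pseudogenes, and the short transcripts of Sm genes give few fragments: the 283 FPKM of Snrpe are about 20.1 fragments.

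LSm genes ran both ways, and many of them were not read. LSm proteins 2 to 8 form a ring on U6 RNA, LSm10 and LSm11 belong to the U7 snRNP that processes histone mRNA, and Lsm14a and Lsm14b act in cytoplasmic mRNA storage. Of 13 genes 6 were listed at 0 in both libraries (Lsm1, Lsm4, Lsm5, Lsm6, Lsm11 and Lsm12). Of the other 7 there were 3 higher (next to 40.5% of all genes), 3 lower (next to 44.3%) and 1 within 2-fold (next to 15.3%). Lsm8 was read at 240.0 FPKM in wild-type against 101 in Kmt2d +/mut (interval of the ratio 0.213 to 0.826), and Lsm7 at 51.5 and 139. Lsm3 and Lsm10 stood at 191 and 134 FPKM in wild-type, each against a listed 0. Neither is called by the authors' deposited table (q-values 0.362 and 0.348). Lsm14a stood at 41.7 FPKM in Kmt2d +/mut, about 25.0 fragments, against a listed 0. Lsm14b stood at 1.94 and 11.8 (1 fragment to 6) and Lsm2 at 17.8 and 18.0 (1 to 1). The median log2 ratio was 0.02 and turned to -0.61 without Lsm7, the only one of the 7 with an annotated copy.

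The PRPF family was split almost evenly, with no gene over the minimum within 2-fold, next to 15.3% of all genes. These proteins are named for yeast pre-mRNA processing factors and act at successive steps of the spliceosome. Of 13 genes 11 were over the minimum, of which 6 stood at least 2-fold lower (next to 44.3% of all genes) and 5 higher (next to 40.5%), and Prpf3 and Prpf6 were listed at 0 in both. Prpf8, the large U5 protein at the catalytic centre, was read at 66.9 FPKM in wild-type against 16.9 in Kmt2d +/mut, or 4 fragments to 1 as the smallest pair, with an interval of 0.161 to 0.393. Prpf38b stood at 53.2 and 11.4. Both were lower in Kmt2d +/mut. In the other direction Prpf18, a factor of the second catalytic step, stood at 2.81 FPKM in wild-type against 162 in Kmt2d +/mut, with 1 fragment to 57 as the smallest pair and about 2.06 and 118 from its length. Prpf39, named for a yeast U1 protein, stood at 3.50 and 118, a ratio of 33.8 (interval 11.2 to 167). The q-values for Prpf18 and Prpf39 in the authors' deposited table are 0.585 and 0.582.

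The authors' deposited table calls 3 of the 8 PRPF genes it tested, next to 27.0% of all genes tested, and all 3 were listed at 0 in 1 library. Prpf38a (chr4:108563172-108579336, minus strand), needed before spliceosome activation, stood at 141 FPKM in wild-type, about 41.2 fragments, against a listed 0, called as lower in the authors' deposited table with a q-value of 0.029. Prpf40b (chr15:99295087-99317018, plus strand), a splicing factor with WW domains, and Prpf4b (chr13:34875302-34906064, plus strand), a kinase of the spliceosome, were listed at 0 in wild-type and stood at 54.1 and 70.7 FPKM in Kmt2d +/mut. Both are called as higher by the authors' deposited table (q-values 0.029 and 0.0303). Prpf4, of the U4/U6 snRNP, stood at 46.6 FPKM in wild-type against a listed 0, Prpf31 at a listed 0 against 6.26, and Prpf19 at 1.61 against a listed 0, with no test of them in the authors' deposited table. The median log2 ratio of the family, -1.38, was set by Prpf19 and changed sign with a minimum of 5 FPKM, to 0.47.

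The authors' deposited table tested 44 of the 101 members and calls 6 of them, next to 27.0% of all 3249 genes it tested. These are Srsf9 and Prpf38a as lower and Srsf12, Sf3a3, Prpf40b and Prpf4b as higher, next to 14.3% and 12.8% of all tested genes. Every call in that comparison of the authors' deposited table, over all genes, is of a gene listed at 0 in 1 library: 878 of 1423 tested genes of that kind (61.7%) and 0 of 1826 tested genes above 0 in both (0.0%). The members follow from this, with 6 of 11 and 0 of 33 called in the authors' deposited table. Among the 33 the smallest q-value in the authors' deposited table is 0.514, for Hnrnph1, and the smallest unadjusted p-value is 0.190.

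Among the tissue regulators, several families showed members running in opposite directions. Of 21 genes 17 were over the minimum, with 8 at least 2-fold lower (47.1%, next to 44.3% of all genes), 6 higher (35.3%, next to 40.5%) and 3 within 2-fold. None of the 17 was listed at 0 in wild-type and 4 were in Kmt2d +/mut, next to 27.8% and 31.9% of all genes. The authors' deposited table tested 6 of them and calls 0, next to 27.0% of all genes tested. All 6 were above 0 in both libraries, where that table calls no gene. The median log2 ratio of -0.69 became 0.48 over the 13 members above 0 in both. Celf3, Celf6, Nova2 and Mbnl3 were listed at 0 in both.

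Ptbp1 and Ptbp2 stood in opposite order in the 2 libraries. Ptbp1 (chr10:79854427-79864771, plus strand), which represses neuronal exons in progenitors and non-neural cells, was read at 15.0 FPKM in wild-type against 67.5 in Kmt2d +/mut, a ratio of 4.50 (interval 2.16 to 9.73). Ptbp2 (chr3:119718742-119784466, minus strand), its neuronal paralog, stood at 118 and 26.0, a ratio of 0.220 (interval 0.124 to 0.369). Within a library, where scaling between libraries has no part, Ptbp2 was 7.90 times Ptbp1 in wild-type, and Ptbp1 was 2.60 times Ptbp2 in Kmt2d +/mut. The authors' deposited table tested both and calls neither, with q-values of 0.665 and 0.611. Ptbp1 has 1 near-identical annotated pseudogene, and the locus deposited for it is a merged region that spans many genes. Ptbp3 stood at 1.35 FPKM in wild-type, about 1 fragment, and a listed 0. The summed stem and progenitor markers were higher in Kmt2d +/mut, at 1001 against 428 FPKM. So were the oligodendrocyte lineage markers (1282 against 742) and the microglial markers (211 against 59.8). The granule lineage markers summed to 857 against 1128, but single markers ran both ways. Lower in Kmt2d +/mut were Calb1 (0 against 178), Neurod1 (41.9 against 92.5) and Snap25 (539 against 685). Higher were Dcx (51.1 against 0), C1ql2 (193 against 161) and Rbfox3 (31.0 against 12.1). The part of cell makeup in the Ptbp values was not tested.

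The start regions of this pair are shown because the genes stood in opposite order. They are given for Ptbp1 (chr10:79854182-79854481, plus strand) and Ptbp2 (chr3:119783339-119783638, minus strand), in the same windows and with the same matches in capitals.
Ptbp1: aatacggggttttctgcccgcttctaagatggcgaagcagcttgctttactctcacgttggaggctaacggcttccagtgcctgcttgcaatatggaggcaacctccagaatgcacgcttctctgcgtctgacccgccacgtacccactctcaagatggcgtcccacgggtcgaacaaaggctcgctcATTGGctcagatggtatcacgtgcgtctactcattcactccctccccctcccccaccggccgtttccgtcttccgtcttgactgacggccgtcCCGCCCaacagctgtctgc
Ptbp2: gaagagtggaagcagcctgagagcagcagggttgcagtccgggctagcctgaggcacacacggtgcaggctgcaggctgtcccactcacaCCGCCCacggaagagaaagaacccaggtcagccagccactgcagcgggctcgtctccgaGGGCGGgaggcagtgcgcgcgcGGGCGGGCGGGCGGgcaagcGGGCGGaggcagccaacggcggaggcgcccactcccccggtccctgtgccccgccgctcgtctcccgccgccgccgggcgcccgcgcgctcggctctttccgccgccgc
The Ptbp2 window holds 36 CpG and 6 GC box matches, 3 of them side by side, and has 74.7% G and C. The Ptbp1 window holds 22 CpG, 1 GC box and 1 CCAAT, and has 58.3% G and C.

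**Figure D4:**
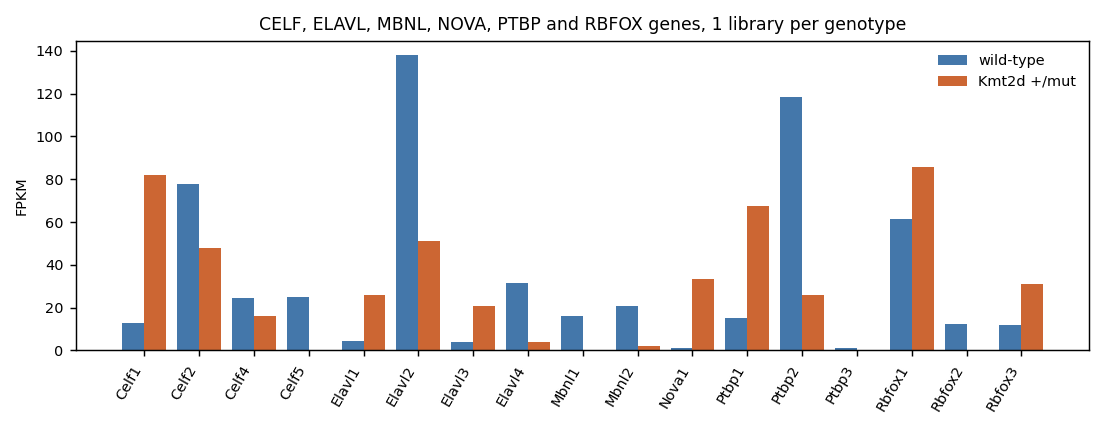
FPKM of the 17 tissue regulator genes over the minimum in the wild-type and Kmt2d +/mut libraries, 1 bar per library, so no error bars are drawn. Ptbp1, Elavl1, Elavl3, Celf1, Nova1 and Rbfox3 are at least 2-fold taller in Kmt2d +/mut and Elavl2, Elavl4, Ptbp2 and Mbnl2 in wild-type, while Celf5, Mbnl1, Rbfox2 and Ptbp3 have no bar in Kmt2d +/mut.

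The 4 ELAVL genes also divided. ELAVL proteins bind AU-rich and U-rich stretches and stabilise mRNAs; Elavl1 is expressed broadly, and the other 3 are neuronal. Elavl2 was read at 138 FPKM in wild-type against 51.1 in Kmt2d +/mut (interval of the ratio 0.255 to 0.540), and Elavl4 at 31.7 and 3.85, a pair of 25 fragments to 3. Elavl1 stood at 4.64 and 25.9 and Elavl3 at 3.74 and 20.8, both at 2 fragments to 11 as the smallest pair. The 3 neuronal members were thus not read in 1 direction. Elavl2 was 29.7 times Elavl1 in wild-type and 1.98 times in Kmt2d +/mut.

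CELF and RBFOX genes ran both ways, with 3 of their 7 read members within 2-fold. Celf2, which binds GU-rich elements, was read at 77.6 FPKM in wild-type against 47.7 in Kmt2d +/mut (interval 0.339 to 1.05), and the neuronal Celf4 at 24.6 and 16.2 (0.289 to 1.31). Celf1 stood apart at 13.1 and 82.2, a ratio of 6.29 (interval 3.97 to 10.3), so that Celf2 was 5.93 times Celf1 in wild-type and Celf1 was 1.72 times Celf2 in Kmt2d +/mut. Celf5 stood at 24.8 in wild-type against a listed 0. Rbfox1, a neuronal and muscle regulator that binds GCATG, stood at 61.5 and 85.9 (interval 0.701 to 2.73). Rbfox3, which encodes the neuronal nuclear antigen NeuN, stood at 12.1 and 31.0 (interval 1.07 to 6.65), and Rbfox2 at 12.3 against a listed 0. Rbfox1 was above Rbfox3 in both libraries, by 5.09 times in wild-type and 2.77 times in Kmt2d +/mut.

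NOVA and MBNL genes rested on few fragments in 1 library. Nova1, a neuronal splicing regulator, was read at 1.33 FPKM in wild-type against 33.6 in Kmt2d +/mut, with 1 fragment to 25 as the smallest pair and about 2.03 and 50.8 fragments from its length. Its ratio of 25.3 had an interval of 6.80 to 219. Mbnl1 and Mbnl2 promote the exon choices of mature tissues. Mbnl1 stood at 16.0 FPKM in wild-type against a listed 0, and Mbnl2 at 21 and 2.13, about 20.1 and 2.02 fragments. Both were lower in Kmt2d +/mut.

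How alike the libraries were depended on level. Of the 14 members with a mean of 100 FPKM or more, 14 were above 0 in both libraries and 9 lay within 2-fold (64.3%), next to 75.4% and 35.5% of the 1013 genes at that level. At a mean of 20 to 100 FPKM 7 of 38 members were within 2-fold (18.4%, next to 17.6% of all genes), and under 20 FPKM 1 of 26 (3.85%, next to 8.26%). Over the 49 members above 0 in both, the log2 values of the libraries correlated with r = 0.445 (Pearson) and rho = 0.503 (Spearman) across genes, which are not independent replicates, beside 0.409 and 0.416 over 3191 genes. A whole-number pair with 3 or fewer fragments on its low side fitted 16 of the 49 members, and 11 of the 19 that were at least 4-fold apart.

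Other genes of splicing and RNA binding, taken from lists of spliceosome, exon junction and RNA-binding proteins, ran both ways. Of 155 such genes 113 were over the minimum. Of these 43 stood at least 2-fold higher (38.1%, next to 40.5% of all genes), 33 lower (29.2%, next to 44.3%) and 37 within 2-fold (next to 15.3%). Of 36 further spliceosome proteins 18 were higher (50%, next to 40.5% of all genes), 10 lower (27.8%, next to 44.3%) and 8 within 2-fold (next to 15.3%). The most abundant were Luc7l3, a U1-associated protein, at 255 FPKM in wild-type against 522 in Kmt2d +/mut, and Ik at 151 and 122. In this list the authors' deposited table calls Ddx41 and Ctnnbl1 higher, both at 0 in wild-type, with 228 and 95.8 FPKM in the other library. It calls Dnajc8 lower, at 209 FPKM in wild-type against a listed 0. Of 27 exon junction and SR-related genes 12 were higher (44.4%, next to 40.5% of all genes), 4 lower (14.8%, next to 44.3%) and 11 within 2-fold (next to 15.3%). The SR protein kinase Clk1 stood at 1005 FPKM in wild-type against 685 in Kmt2d +/mut and the speckle protein Son at 309 and 286, and the authors' deposited table calls Clk3 and Scaf11 higher, at 189.6 and 60.7 against a listed 0.

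The remaining lists also ran both ways. Of 43 other RNA-binding proteins 11 were higher (25.6%, next to 40.5% of all genes), 17 lower (39.5%, next to 44.3%) and 15 within 2-fold (next to 15.3%). Rbm39 stood at 535 FPKM in wild-type against 489.6 in Kmt2d +/mut and Ewsr1 at 256 and 231, and the authors' deposited table calls Pcbp1 higher, at 103 against a listed 0. Of 17 genes of snRNP assembly and cap binding 10 were listed at 0 in both (58.8%, next to 66.9% of all genes). Among the other 7, 2 were higher and 2 lower (28.6% each, next to 40.5% and 44.3% of all genes), and 3 lay within 2-fold (next to 15.3%). The import adaptor Snupn stood at 119 and 133 FPKM and Ncbp2, the cap-binding subunit, at 12.3 and 107.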

How the data were processed

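RNA of 2 pooled nuclear libraries, 1 per genotype, was measured with a modified Smart-seq2 protocol, per the labels' protocols. The submitters' processing notes name HISAT2, Cuffnorm, Cuffdiff and mm10. Their versions and settings, and the annotation, are not stated in the labels or files. The FPKM values, the p-values and q-values of the test between libraries, the calls and the log2 fold were used as the authors deposited them. The table holds 6 libraries; 4 were not used. Of 24346 entries 27 carry a date as name and were left out. The 7 families, the members and the lists were chosen with earlier results of these data known. With 1 library per genotype no test was made here.

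Genes were compared by the log2 difference of FPKM + 1, Kmt2d +/mut minus wild-type, over genes with 1 FPKM in either library. All members may be named, with values for the 4 most abundant and the extremes of each family, every called gene and every tissue regulator; a few others were added after their values were seen. The values of 1 member, which the counts include, are not reported here. Of the other lists, values are given for the 2 most abundant genes and up to 3 called ones. Depth came from steps between low values in genes with 1 annotated transcript over 800 bp: after taking 180 bp off the length, 1 fragment on 1 kb equalled 4.56 (wild-type) or 4.61 FPKM (Kmt2d +/mut). Of the low values used, 80.4% of 107 and 76.1% of 88 lay within 0.1 of whole. Fragments of a member used its principal GENCODE M21 transcript (mm10), which may not be the one the authors used. Pairs of whole fragments were matched within 0.0005 on the log2 scale, up to 60. Of all genes above 0 in both libraries 29.5% matched a pair, and of the members 32.7%. Copies were found with BLAST 2.17.0. Promoter windows (RefSeq) were found for 86 members. Python 3.11.15, numpy 2.4.6, pandas 2.3.3, scipy 1.17.1 and matplotlib 3.10.9 were used. Alternatives covered the pseudocount, the minimum, genes listed at 0, tested genes, the scaling, the fold and members with copies.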

Additional observations from a re-analysis of the deposited data

How the results depend on the processing

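For the 101 genes together, the main counts were 24 at least 2-fold higher and 37 lower, with a median log2 ratio of -0.77. With only genes above 0 in both libraries these were 14 and 18, and with only genes the authors tested 13 and 18; fewer genes enter either. The median was -0.78 with a pseudocount of 0.1, -0.46 with 10, -0.70 with a minimum of 5 FPKM, -0.28 above 0 in both libraries, -0.28 over the same 49 genes by the authors' deposited log2 fold, -0.63 among tested genes, -0.59 with the libraries rescaled to the same FPKM sum and -0.85 without members with an annotated copy, a setting chosen after seeing the data. Rescaling moved the median of all genes by 0.19, from -0.23 to -0.04. It shifts the members and all genes nearly alike, so the distance between their medians on the new scale adds no information about the members. In the 56 family medians recomputed, also after seeing the data, 5 had the opposite sign. These were the PRPF genes, at 0.47 with a minimum of 5 and 1.40 among tested genes, the LSm genes, at -4.16 among tested genes and -0.61 without copies, and the tissue regulators, at 0.48 above 0 in both libraries; the cause was not tested. The hnRNP median ran from -2.23 to -1.20 over its 8 alternatives. No paired analysis was possible because there is 1 library per genotype, and no replicate could be left out. At about 219000 and 217000 fragments, a listed 0 does not show that a gene is absent.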
